A study of Mus musculus with 38 samples.

Results

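The interferon-stimulated genes followed here are 41 genes that cells switch on when an interferon binds its receptor. They were chosen by name, with earlier results of these data known, from the 49585 genes listed in each of 4 normalised expression tables of mouse skin. A gene was counted as measured where its mean over the libraries of a table was at least 10, which held for 41 of 41 in both whole-skin tables, 39 in sorted cells at 10 days and 32 in sorted cells after DMBA/TPA.

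RNA came from mouse back skin with Srsf2, the gene of a splicing factor of the SR family, deleted or carrying the P95H change. Krt14-CreER, a tamoxifen-activated recombinase made in keratin 14-expressing cells, acted on the allele, so in whole skin the allele was changed in part of the cells only. The knockout (KO) skin set held Cre-positive SRSF2-KO mice after 4, 10 and 12 days of topical 4-hydroxytamoxifen (3 each), against 3 Cre-negative controls treated for 12, 12 and 10 days, and tdTomato allele number differed between mice of this set. The P95H skin set held Cre-positive SRSF2-P95H mice after 12 days (2) and 28 days (4), against Cre-negative controls after 12 days (5) and 28 days (3), all wild type for tdTomato. Reporter-positive cells were sorted from 3 KO and 3 control mice after 10 days, and from 3 heterozygous SRSF2-P95H and 3 control mice after 3 tamoxifen injections and DMBA/TPA (chemical skin carcinogenesis, in which a mutagen is followed by a promoting agent), at 20 weeks. The labels do not state the Cre status of the sorted controls. All controls received tamoxifen, and the labels call the replicates biological. The labels do not state the age, sex or strain of the mice.

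Interferons of type I and type III act through a complex that holds STAT2 and IRF9 and binds a DNA element called the interferon-stimulated response element (ISRE). Interferon gamma acts mainly at a different element, the gamma-activated site (GAS). The induced proteins sense viral nucleic acid, degrade RNA, block translation, trap virus particles, attack vacuoles that hold pathogens and present antigen, and in skin both keratinocytes and immune cells can make them.

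In whole skin, values are given in steps. A step is the smallest nonzero value of a library, so a gene that was not detected sits at 1 step, and levels in steps are on a like scale across the libraries of a table but not across tables. Estimated depth was 24.9 to 36.8 M (mega) reads in the KO skin set and 7.37 to 32.2 M in the P95H skin set, and total reads were 45.9 to 92.8 M in sorted KO-set cells and 10.98 to 17.2 M after DMBA/TPA. The 7 basal keratinocyte markers summed to 99070 steps or more in every whole-skin library. In sorted libraries they summed to 1128160 normalised counts or more at 10 days and to 254034 or more after DMBA/TPA. Whole skin held other cells too: in KO-set control skin fibroblast markers summed to 337224 to 798666 steps, and basal keratinocyte markers to 206280 to 298691. Srsf2 itself stood at 3659, 3359 and 1900 normalised counts in sorted KO cells, against 17560, 18190 and 20595 in sorted control cells. In whole KO skin the drop was small or absent: Srsf2 had 2885, 2879 and 2996 steps in controls, 2450 to 2790 at 4 days, 2996 to 3687 at 10 days and 2303 to 2559 at 12 days. In P95H skin at 28 days Srsf2 had 2597, 3450, 3355 and 3400 steps, against 3278, 3232 and 2986 in control skin, and a total count does not report on the mutation.

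The upstream sequences of the members were searched for the elements through which interferons act. RefSeq promoters (build GRCm38.p6, 250 bases before to 50 bases after the start) were found for 30 of the 41 genes. The ISRE core GAAANNGAAA, searched on both strands with overlapping matches counted, was present in 19 of 30 members (63.3%), against 3.99% of all 27025 genes in the promoter table. The GAS core TTCNNNGAA, searched the same way, was present in 8 of 30 (26.7%), against 9.55% of all genes. A match is a run of letters in a window and is not shown to be a binding site. The following stretches, shown because these genes are among those whose values are described below and hold the element, run 5′ to 3′ on the gene's strand towards the start, with the ISRE matches in capitals (capitals that begin with TTTC are the same core on the opposite strand).
Isg15: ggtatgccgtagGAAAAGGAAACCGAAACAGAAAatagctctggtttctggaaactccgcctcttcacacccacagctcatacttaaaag
Ifit1: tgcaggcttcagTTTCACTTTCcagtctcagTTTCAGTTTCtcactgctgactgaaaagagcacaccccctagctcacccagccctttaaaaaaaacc
Ifit3: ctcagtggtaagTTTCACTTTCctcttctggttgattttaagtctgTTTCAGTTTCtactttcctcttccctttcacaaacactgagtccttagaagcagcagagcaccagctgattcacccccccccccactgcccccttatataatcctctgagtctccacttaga
Ifit3b: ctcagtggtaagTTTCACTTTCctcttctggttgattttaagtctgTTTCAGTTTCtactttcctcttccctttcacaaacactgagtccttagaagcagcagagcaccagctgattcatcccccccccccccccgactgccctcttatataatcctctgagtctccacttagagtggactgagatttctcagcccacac
Oas1a: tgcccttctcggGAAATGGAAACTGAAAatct
Oas1g: tgcccttctcggGAAATGGAAACTGAAAat
Oas3: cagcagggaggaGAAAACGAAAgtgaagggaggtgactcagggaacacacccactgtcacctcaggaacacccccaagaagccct
Rsad2: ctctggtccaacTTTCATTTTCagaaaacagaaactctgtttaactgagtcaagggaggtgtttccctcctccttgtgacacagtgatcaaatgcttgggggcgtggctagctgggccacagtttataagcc
Bst2: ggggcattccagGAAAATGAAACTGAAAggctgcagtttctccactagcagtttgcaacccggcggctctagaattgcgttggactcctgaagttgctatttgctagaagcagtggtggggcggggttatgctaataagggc
Igtp: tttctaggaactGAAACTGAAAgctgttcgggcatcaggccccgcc
These stretches lie on GRCm38.p6: Isg15 at chr4:156200819-156200908 (minus strand), Ifit1 at chr19:34640773-34640870 (plus strand), Ifit3 at chr19:34583361-34583528 (plus strand), Ifit3b at chr19:34607757-34607956 (plus strand), Oas1a at chr5:120907526-120907557 (minus strand), Oas1g at chr5:120887614-120887643 (minus strand), Oas3 at chr5:120777662-120777746 (minus strand), Rsad2 at chr12:26456453-26456584 (minus strand), Bst2 at chr8:71537473-71537614 (minus strand) and Igtp at chr11:58199510-58199555 (plus strand). The members are spread over 15 chromosomes, with all 6 genes of the 2-5A synthetase family on chromosome 5 and all 4 Ifit genes on chromosome 19. Isg15 held 3 overlapping matches and Oas1a, Oas1g and Bst2 held 2 overlapping ones, while Ifit1, Ifit3 and Ifit3b each held 2 separate ones. The 19 members with a match had a median log2 change of 1.07 in P95H skin at 28 days, the 11 whose window held none also had 1.07, and the 11 with no promoter entry had 1.70.

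The largest response was in P95H skin after 28 days. Of the 41 interferon-stimulated genes, 36 rose and none fell (limma, Benjamini-Hochberg adjusted p below 0.05 over all 18311 genes tested), where 6.70% of all genes rose and 5.46% fell. All 41 changes were positive, with a median log2 change of 1.23 against -0.01 for all genes tested. In 38 of the 41, each of the 4 P95H libraries lay above each of the 3 control libraries, which was so for 14.5% of all genes. The 5 that did not pass were Gbp3, Ifit3b, Ifit2, Oasl1 and Trim30a, and the plot of 6 genes by library shows the 2 groups apart.

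Isg15, a ubiquitin-like protein joined to other proteins, changed most. It had 598, 177, 177 and 223 steps in P95H skin, against 10, 8 and 18 steps in control skin at 28 days. The lowest P95H library was well above the highest control. The fold change was 20.7 (log2 change 4.37 ± 0.40, SE; adjusted p = 3.56e-05, limma). Parp9 and Parp14, which attach ADP-ribose to proteins, rose 1.93-fold (adjusted p = 0.00275) and 1.68-fold (adjusted p = 0.0141), so all 3 members of the modifier class rose.

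All 4 genes of signal transduction and transcription rose. Irf7, the transcription factor that amplifies type I interferon production, had 1168, 317, 361 and 390 steps in P95H skin, against 93, 95 and 87 in control skin. The control values were close together, and 1 P95H library stood far above the other 3. The fold change was 5.17 (adjusted p = 0.00107). Irf9, the DNA-binding part of the interferon complex, had 1297, 1083, 1023 and 1185 steps, against 527, 563 and 536 (2.11-fold, adjusted p = 9.54e-05). The 4 P95H values were alike for this gene, and none came near the controls. Stat2 rose 2.04-fold, and Usp18, which removes ISG15 and damps the receptor, rose 3.72-fold (adjusted p = 0.00453 and 0.00135).

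**Figure D1:**
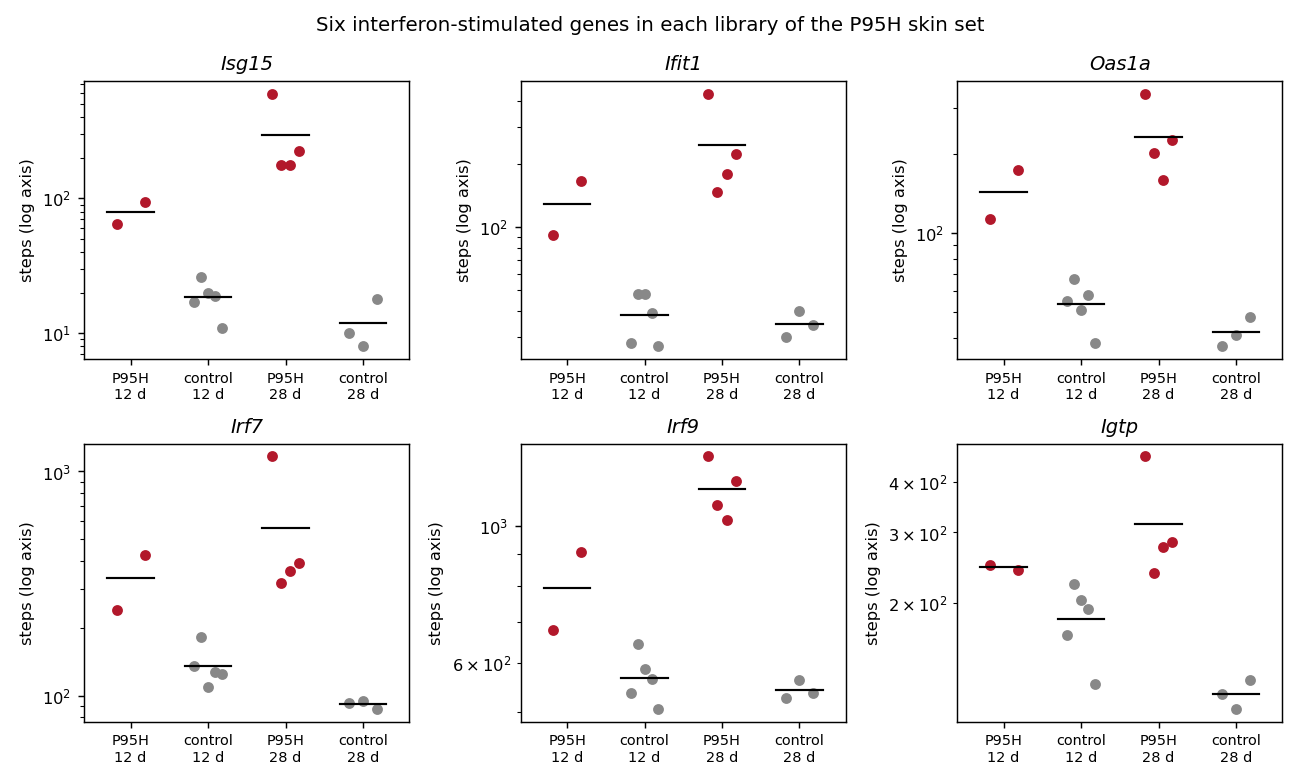
Steps (log axis) of Isg15, Ifit1, Oas1a, Irf7, Irf9 and Igtp in each library of the P95H skin set, at 12 and 28 days; points are libraries and bars are means. At 28 days every P95H library lies above every control library for these genes, and replicate 1 is the highest of the 4.

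The sensors of foreign nucleic acid rose in 4 of 4 cases. Dhx58, encoding LGP2, rose 3.82-fold and Zbp1, which binds Z-form nucleic acid, 3.24-fold (adjusted p = 0.00114 and 0.00463). Ddx58, encoding the RNA helicase RIG-I, and Ifih1, encoding MDA5, moved less, at 1.59-fold and 1.73-fold (adjusted p = 0.00591 and 0.00956).

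The 2-5A synthetase family is named for enzymes that make a short oligoadenylate that activates RNase L, an activity not shared by every member. It was the class with the largest median (log2 change 2.34), and 5 of 6 rose. Oas3 had 916, 207, 212 and 306 steps in P95H skin, against 35, 29 and 44 in control skin (9.16-fold, adjusted p = 0.000582). Oas1g and Oas1a rose 7.41-fold and 5.25-fold (adjusted p = 0.000159 and 8.91e-05). Oas1a had 341, 202, 160 and 227 steps, against 37, 41 and 48, with no overlap. The Oas1 genes are near-identical neighbours on chromosome 5, so reads could be split between them. Oasl1 is the exception, with 65, 20, 27 and 42 steps in P95H skin, against 27, 16 and 20 in control skin, and the groups overlap (adjusted p = 0.303).

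Of 5 genes that bind RNA or block translation, 3 rose. Ifit1, which binds RNA with foreign 5′ ends, had 434, 147, 179 and 223 steps, against 30, 40 and 34 (6.37-fold, adjusted p = 0.00032). Eif2ak2, encoding the kinase PKR, rose 1.42-fold (adjusted p = 0.0248) and Ifit3 2.20-fold (adjusted p = 0.0364). Ifit2 and Ifit3b did not pass, at 1.38-fold and 1.91-fold (adjusted p = 0.102 and 0.0761). Ifit3 and Ifit3b are near-identical copies, which the counting could split.

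Of 7 antiviral effectors at membranes or in nucleotide metabolism, 6 rose. The dynamin-like GTPases Mx2 and Mx1 rose 5.13-fold and 3.72-fold (adjusted p = 0.00105 and 0.00185), with the annotation used here listing Mx2 as a polymorphic pseudogene. Rsad2, encoding the antiviral protein viperin, rose 3.57-fold and Bst2, encoding tetherin, 2.67-fold (adjusted p = 0.00773 and 0.00558). Ifitm3, which hinders fusion of viral and cell membranes, was the member with the highest level per length, at 2873 steps per kilobase of merged exons in P95H skin and 1298 in control skin at 28 days. Trim30a had the smallest change of all 41, with 254, 302, 349 and 348 steps against 219, 268 and 318 (1.17-fold, adjusted p = 0.416).

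Of 5 guanylate-binding proteins and immunity-related GTPases, which act at vacuoles that hold pathogens and answer strongly to interferon gamma, 4 rose. Igtp had 464, 238, 276 and 284 steps, against 119, 109 and 129 (2.56-fold, adjusted p = 0.00153), again without overlap. Iigp1 rose 2.42-fold (adjusted p = 0.0143), and Gbp3 had 1.51-fold without passing (adjusted p = 0.0689). Both antigen-processing genes rose: Psmb8, an immunoproteasome subunit, 1.85-fold and Tap1, the peptide transporter, 1.60-fold (adjusted p = 0.0166 and 0.00169). All 5 other induced genes rose, led by Ifi44 (5.02-fold) and Ifi27l2a (3.79-fold; adjusted p = 0.00413 and 0.00213).

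A single P95H library stood apart. Replicate 1 at 28 days had the lowest depth of the set, about 7.37 M reads against 19.5 to 23.4 M in the other P95H libraries of that time, and the highest value of the 4 for 38 of 41 members. Its mean log2 level over the members was 9.21, against 8.12, 8.12 and 8.36 in the other P95H libraries. Without it, 35 of 41 members rose, where 6.64% of all genes did, the median log2 change was 0.997, and the change of Isg15 was 15.6-fold. The other 3 P95H libraries lay above all 3 controls for 38 of 41 members.

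**Figure D2:**
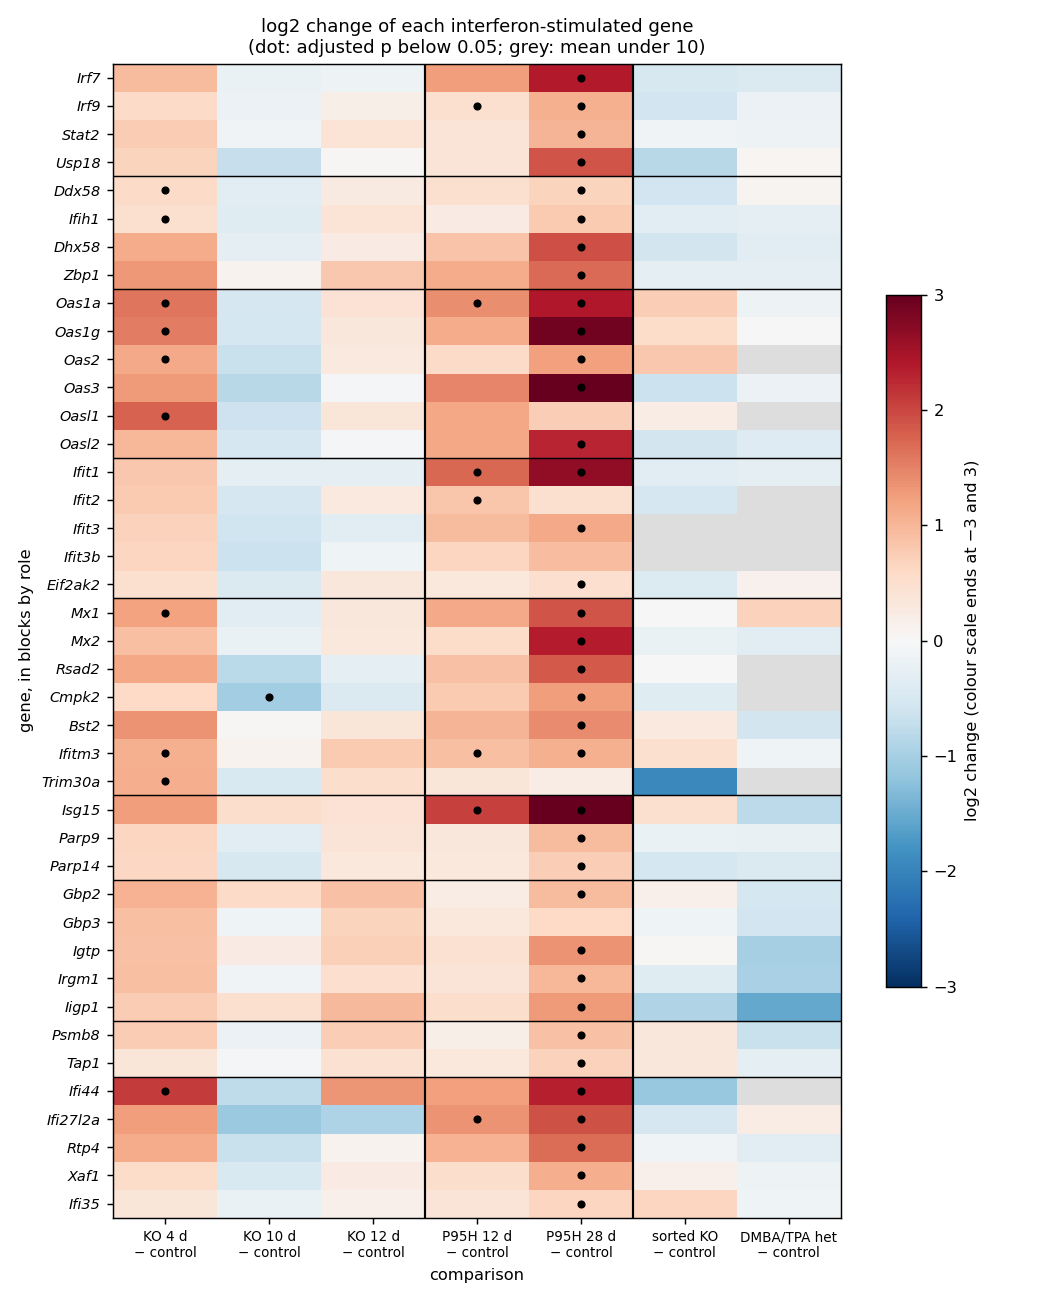
log2 change of the 41 genes, in blocks by role from signal transduction (top) to other induced proteins (bottom), in 7 comparisons against control; colour runs from -3 to 3, a dot marks adjusted p below 0.05, grey marks a mean under 10. Dots fill the P95H 28 day column (36 of 41), and the 2 sorted columns hold none.

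Genes upstream and beside the members were read from lists of other pathway genes. In P95H skin at 28 days, 19 of 49 other measured interferon-stimulated genes rose and none fell, among them the chemokine Cxcl10 (log2 change 3.71, adjusted p = 3.56e-05), Slfn9 (0.92, adjusted p = 0.00329), Rnf213 (1.09, adjusted p = 0.00533) and Dtx3l (0.61, adjusted p = 0.00544). Cxcl10 had 336, 103, 132 and 173 steps in P95H skin and 11, 11 and 14 in control skin. Of 29 measured genes that lean to interferon gamma, 18 rose and none fell, including the chemokine Cxcl9 (log2 change 2.69, adjusted p = 0.002), Gbp6 (1.21, adjusted p = 0.00236), Tgtp2 (1.53, adjusted p = 0.00508) and Tapbp (0.66, adjusted p = 0.00542).

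Among further genes that act below the receptors, Socs1, a feedback inhibitor of cytokine signalling, rose (log2 change 1.02, adjusted p = 0.00517), and so did the transcription factor gene Irf1 (1.75-fold, adjusted p = 0.0221). Of 21 genes of nucleic acid sensing outside the members 3 rose: Adar, an RNA-editing enzyme (log2 change 0.89, adjusted p = 0.00363), Myd88 (0.36, adjusted p = 0.0184) and Ikbke (0.39, adjusted p = 0.0257). None of the 6 receptor genes passed the test (limma). Ifnar1 averaged 1048 ± 86.9 steps in P95H skin (SD, n = 4) and 1138 ± 17.0 in control skin (SD, n = 3), and Ifnar2 252 ± 23.6 steps and 253 ± 6.25 steps. None of the 13 interferon genes listed reached a mean of 10 in whole skin. Ifnb1 stood at 7, 2, 1 and 1 steps and Ifng at 9, 2, 2 and 4 in P95H skin, against 1 step for Ifnb1 in each of 3 controls and 2, 1 and 1 for Ifng. Ifnk, made by keratinocytes, was at 1 step in all 4 P95H libraries and at 1, 2 and 1 in the controls. At these levels a difference in the interferon genes was not detectable at this depth.

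Markers of immune cells at 28 days were measured beside the members. None of 12 macrophage markers rose (Mertk fell), and their summed level overlapped, at 16354 to 21438 steps in P95H skin and 14667 to 21274 in control skin. The Langerhans cell sum was higher without overlap, at 19041 to 24473 steps in P95H skin and 13120 to 16729 in control skin. So were the dendritic cell sum (1071 to 1247 and 784 to 1070) and the basal keratinocyte sum (140039 to 178342 and 124346 to 130078). The endothelial sum was lower without overlap, at 5249 to 6807 and 6843 to 7095 steps. The leukocyte gene Ptprc had 2442 to 2674 steps and 2137 to 2502 steps. The T and NK cell marker sum was 2459 to 3135 steps in P95H skin and 2650 to 3057 in control skin, with Trac higher and Trdc lower among 11 measured markers. Neutrophil markers summed to 311 to 638 steps in P95H skin and 127 to 269 in control skin. Cxcr2 was the 1 of 4 measured neutrophil markers that rose, while Ly6g was undetected in both groups. Of the other markers, the monocyte gene Fcgr4 (log2 change 1.97), the dendritic cell genes Ccr7 (1.66) and Itgax (0.68) and the keratinocyte genes Flg (2.98), Ivl (1.16), Krt1 (1.04) and Krt14 (0.78) also rose. The part of these cells in the members' rise was not tested. In whole skin, more cells of a type and more RNA per cell cannot be told apart.

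At 12 days P95H skin showed a smaller set. Here 7 of 41 members rose and none fell, where 3.96% of all genes rose and 2.97% fell, and all 41 changes were positive, with a median log2 change of 0.65 against -0.0018 for all genes. The 2 P95H libraries lay above all 5 controls for 27 of 41, against 13.7% of all genes. Isg15 had 65 and 94 steps in P95H skin, against 17, 26, 20, 19 and 11 in control skin (4.18-fold, adjusted p = 0.0108). Ifit1 had 92 and 167 steps, against 28, 48, 48, 39 and 27 (3.30-fold, adjusted p = 0.0102). Oas1a had 113 and 175 steps, against 55, 67, 51, 58 and 38 (2.63-fold, adjusted p = 0.00575). All 3 genes showed no overlap between groups.

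Ifi27l2a rose 2.55-fold at 12 days (adjusted p = 0.0306), Ifitm3 1.87-fold (adjusted p = 0.0358), Ifit2 1.77-fold (adjusted p = 0.0216) and Irf9 1.39-fold (adjusted p = 0.0303). The smallest change was that of Psmb8, at 1.13-fold (adjusted p = 0.723). With only 2 P95H mice the calls rest on each: leaving out replicate 2, the higher one, left 0 calls, with the lone mouse assumed to vary like the other groups, and leaving out control replicate 1 left 4. Of the lists of other pathway genes at 12 days, 4 of 49 interferon-stimulated genes rose and 1 fell: Lgals3bp (log2 change 1.04), Slfn1 (1.35), Slfn2 (1.03) and Pml (0.44) rose, and Oas1f (-0.65, adjusted p = 0.00537) fell. Of 29 genes that lean to interferon gamma 3 rose, led by the proteasome activator subunit Psme2 (0.62, adjusted p = 0.00303), and of 21 sensing genes Tlr13 (1.64) and Myd88 (0.50) rose. The receptor gene Ifnlr1 fell (-0.40, adjusted p = 0.0132). At this time 2 of 12 macrophage markers, Cd68 and C1qb, rose, with sums of 19865 to 26450 steps in P95H skin and 14033 to 21433 in control skin, and 2 of 4 measured neutrophil markers, Csf3r and Cxcr2, rose. The neutrophil sum was 362 to 839 steps in P95H skin and 155 to 219 in control skin. The Langerhans cell sum was 18163 to 23523 steps in P95H skin and 12037 to 18140 in control skin. Their part in the members' change was not tested.

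**Figure D3:**
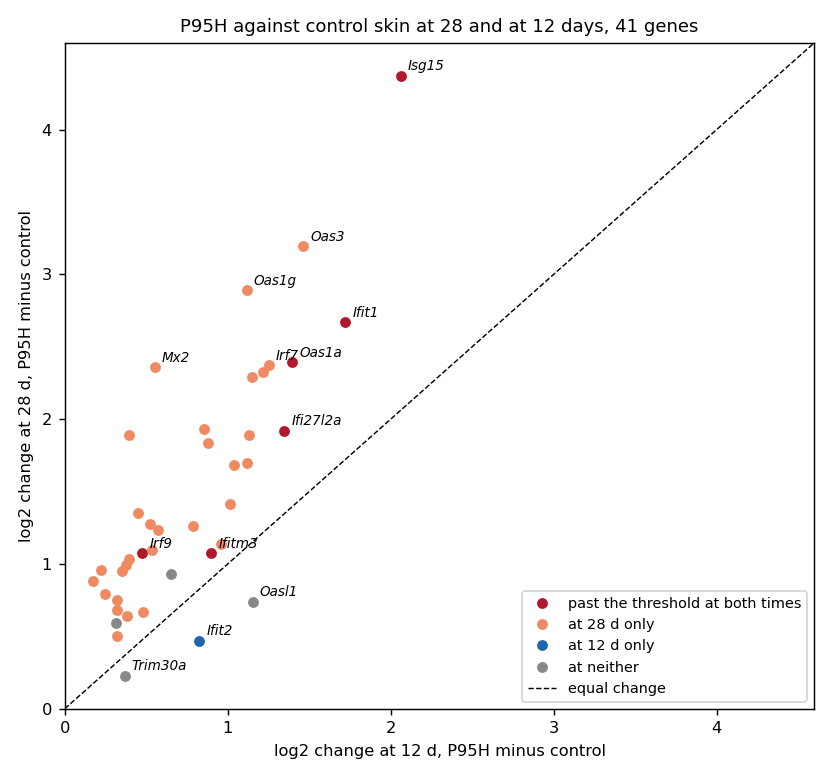
log2 change, P95H minus control skin, of the 41 genes at 28 days (y axis) against 12 days (x axis); each point is a gene, coloured by which comparison passed the threshold, and the dashed line marks equal change. Most points (38) lie above the line, and Isg15 is farthest out on both axes.

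At both times 6 genes rose (Isg15, Ifit1, Oas1a, Irf9, Ifi27l2a and Ifitm3), 30 at 28 days alone, Ifit2 at 12 days alone, and 4 at neither. The change was larger at 28 days for 38 of 41 members, all but Oasl1, Ifit2 and Trim30a. Across the 41 genes the changes had Pearson r = 0.81 and Spearman rho = 0.75, given as a description since genes of 1 library are not independent and the 2 times share a fit. The test of the difference itself (P95H minus control at 28 days, minus the same at 12 days) called none of the 41 by limma, and 17 had an unadjusted p below 0.05, all larger at 28 days. Over all genes tested, 0.0109% were called larger at 28 days and 0% smaller. EdgeR called no member and DESeq2 called 1. The largest differences were those of Isg15 (log2 2.31 ± 0.59, SE; adjusted p = 0.361), Mx2 (1.81 ± 0.51; adjusted p = 0.398) and Oas1g (1.77 ± 0.49; adjusted p = 0.381). The smallest were those of Oasl1 (-0.41), Ifit2 (-0.36) and Trim30a (-0.14).

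Control skin at 28 days was not called different from control skin at 12 days for any member (limma; 5 with an unadjusted p below 0.05, all lower; 0.00546% of all genes called higher and 0% lower). The median log2 change was -0.25, and 35 of 41 were negative. The lowest were Oas3 (-0.84), Mx2 (-0.70) and Usp18 (-0.69), and the highest Ifitm3 (0.21), Eif2ak2 (0.14) and Ifit2 (0.09). DESeq2 and edgeR also called none. With the authors' own scaling in place of steps, 10 members were lower and the median over all genes was itself -0.82, with 452 of all genes lower and 2 higher.

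In KO skin the members were highest at 4 days, low in 2 of 3 libraries at 10 days and intermediate at 12 days. The mean log2 level over the 41 genes was 8.43 ± 0.31 in controls, 9.38 ± 0.43 at 4 days, 8.10 ± 0.60 at 10 days and 8.72 ± 0.06 at 12 days (SD, n = 3 each). Mx1 had 222, 277 and 272 steps in control skin, 575, 490 and 719 at 4 days, 160, 264 and 196 at 10 days and 328, 292 and 356 at 12 days. Ifi44 had 93, 37 and 71 steps in control skin, 234, 194 and 447 at 4 days, 52, 41 and 23 at 10 days and 209, 82 and 236 at 12 days. For both genes all 4 day libraries lay above the controls and above the 10 day libraries.

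At 4 days of deletion 10 of the 41 members rose and none fell, where 7.21% of all genes rose and 4.12% fell. All 41 changes were positive, the median log2 change was 0.90 against -0.01 for all genes tested, and 32 of 41 showed no overlap, against 16.0% of all genes. Treatment of the controls had lasted 10 or 12 days, and here deletion and length of treatment cannot be told apart. The 2-5A synthetase family held 4 of the 10 calls: Oasl1 (3.44-fold, adjusted p = 0.0121), Oas1a (3.03-fold, adjusted p = 0.017), Oas1g (2.90-fold, adjusted p = 0.0271) and Oas2 (2.20-fold, adjusted p = 0.0182). Oas1a had 762, 405 and 922 steps in KO skin at 4 days, against 174, 224 and 259 in control skin. Oasl1 had 382, 347 and 528 steps, against 89, 141 and 135.

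Among the effectors, Mx1 rose 2.29-fold (adjusted p = 0.00773), Trim30a 2.12-fold (adjusted p = 0.0168) and Ifitm3 2.10-fold (adjusted p = 0.0429). The sensors Ddx58 and Ifih1 rose by 0.58 and 0.49 on the log2 scale (adjusted p = 0.0348 and 0.0487), and Ifi44 rose 4.31-fold (adjusted p = 0.0212), the largest change of the 41. The smallest was that of Tap1, with 5475, 3531 and 4931 steps against 3666, 3430 and 3606 (1.28-fold, adjusted p = 0.407). None of the 5 GTPases and neither antigen-processing gene passed. Isg15 had 108, 118 and 298 steps, against 45, 56 and 108 (2.39-fold, adjusted p = 0.131).

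The calls at 4 days depended on single libraries. Without KO replicate 3, which had the highest member mean, 1 call was left, Mx1. Without KO replicate 1 there were 4, without control replicate 1 there were 2, and without control replicate 2 there were 6. With only the compared groups in the fit there were 6, with the deposited values 3, and DESeq2 called 24.

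Markers of some immune and stromal cells were higher at 4 days, and the B cell and the T and NK cell sums did not overlap control skin. The fibroblast sum was higher without overlap, at 1478980 to 3094470 steps in KO skin and 337224 to 798666 in control skin. The basal keratinocyte sum was lower without overlap, at 143689 to 199750 and 206280 to 298691 steps. Some sums did overlap. Endothelial markers summed to 13665 to 17441 steps in KO skin and 12857 to 16654 in control skin. Dendritic cell markers summed to 2161 to 3754 and 1976 to 3039 steps, and Langerhans cell markers to 40689 to 84137 and 34079 to 53014. Of 12 macrophage markers 11 rose, and their sum was 104403 to 192198 steps in KO skin and 39815 to 62220 in control skin, with no marker undetected. Of 5 measured monocyte markers 3 rose, of 7 fibroblast markers all 7 rose, and Ptprc had 2897 to 4020 steps in KO skin and 1636 to 1912 in control skin. Their part in the members' rise was not tested. Of 6 receptor genes 4 rose: Ifnar1 (1.55-fold, adjusted p = 0.0146), Ifngr2 (log2 change 0.36, adjusted p = 0.0304), Il10rb (0.88, adjusted p = 0.0305) and Ifnar2 (1.72-fold, adjusted p = 0.0396). Of 21 further genes of nucleic acid sensing 8 rose, led by Tlr7 (log2 change 1.59), Tlr13 (2.78), Aim2 (1.07) and Tlr8 (1.41; adjusted p = 0.00656, 0.00989, 0.0101 and 0.0101). Of 51 other measured interferon-stimulated genes 13 rose, among them Ddx60 (log2 change 1.52, adjusted p = 0.00724), Slfn2 (1.42), Epsti1 (1.51) and Slfn5 (0.81). Of 29 that lean to interferon gamma 2 rose, Ifi30 (1.43) and Ifi47 (1.45). Among further signalling genes Ptpn6 (1.03) and Socs1 (0.85) rose. The interferon genes stayed at or near 1 step, with Ifnb1 at 1, 1 and 2, Ifnk at 2, 3 and 2 and Ifng at 5, 2 and 2 in KO skin at 4 days, against 1, 1 and 1 for Ifnb1, 2, 2 and 2 for Ifnk and 2, 3 and 1 for Ifng in control skin.

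**Figure D4:**
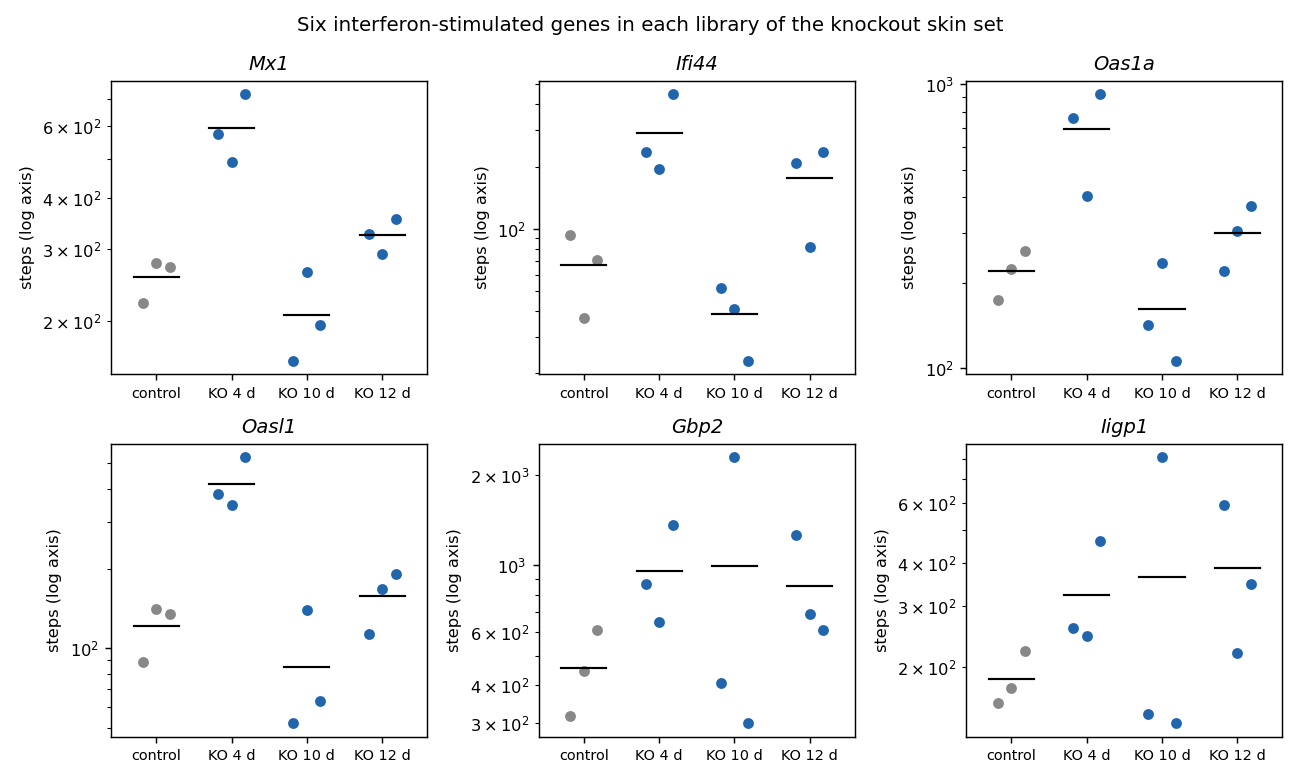
Steps (log axis) of Mx1, Ifi44, Oas1a, Oasl1, Gbp2 and Iigp1 in each library of the KO skin set, ordered by control and then by days of deletion; points are libraries and bars are means. Mx1, Ifi44, Oas1a and Oasl1 are highest at 4 days, whereas Gbp2 and Iigp1 peak in 1 library at 10 days.

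At 10 days 1 member, Cmpk2, a nucleotide kinase beside Rsad2, was lower in KO skin, with 72, 169 and 106 steps against 172, 235 and 290 (log2 change -1.05, adjusted p = 0.0279), where 11.9% of all genes were lower. None rose, where 13.3% of all genes rose, and 34 of 41 changes were negative (median log2 change -0.34). A single library went the other way: replicate 2 had a member mean of 8.79, against 7.72 and 7.78 in the other KO libraries. Gbp2 had 407, 2286 and 299 steps in KO skin at 10 days, against 316, 445 and 611 in control skin. Igtp had 186, 859 and 159, against 223, 215 and 318, and Iigp1 146, 813 and 137, against 157, 174 and 223. In the same library Ifng stood at 13 steps, against 3 and 1 in the other 2, and Cxcl10 at 158, against 24 and 20. Some immune markers were also high there: Cd8a stood at 127 steps, against 31 and 16, Cd4 at 705, against 244 and 203, Fcgr4 at 368, against 39 and 29, and Ccr7 at 209, against 50 and 28. The T and NK cell marker sum was 4804 steps, against 2893 and 2843, and the Langerhans cell sum 71923, against 46984 and 33875. The dendritic cell sum, which holds Ccr7, did not stand apart, at 2608, against 2655 and 1601. The B cell sum was 876, against 839 and 772. Ptprc was at 1679, against 1442 and 1197. Their part in the member levels of this library was not tested.

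Without replicate 2, 6 members were lower than in control skin and the median log2 change was -0.64. Without KO replicate 1 the median was -0.18. The call of Cmpk2 was lost without either other KO library or without control replicate 2 or 3, and without control replicate 1 there were 4 lower members. All 18 markers of the hair shaft and inner root sheath rose at this time, with sums of 4559030 to 6056320 steps in KO skin and 5212 to 235155 in control skin. When libraries were scaled to equal totals, which these genes enter, 19 members were lower, and so were 6806 of all 19450 genes, with a median of -0.34 over all genes. Their part in the members' change was not tested.

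Between times within KO skin, 30 of 41 members were lower at 10 than at 4 days and none higher, where 21.4% of all genes were lower and 18.9% higher. The median log2 change was -1.15 against -0.03 for all genes, and 26 of 41 showed no overlap, against 27.8% of all genes. The largest falls were those of Ifi44 (-2.86), Oasl1 (-2.40), Ifi27l2a (-2.37), Oas1a (-2.10) and Oas3 (-2.10; adjusted p = 0.000944, 0.000408, 0.000709, 0.000802 and 0.00215), and Ifi27l2a had 265, 423 and 250 steps at 10 days, against 1303, 1385 and 2164 at 4 days. Oas1g (-2.06), Rsad2 (-1.97) and Oas2 (-1.81) followed. Iigp1, Tap1 and Gbp2 moved least (-0.29, -0.41 and -0.49) and did not pass. All 12 macrophage markers were lower at 10 than at 4 days as well, and so were Ifnar1 (-0.76) and Ifnar2 (-1.23; adjusted p = 0.0011 for each).

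At 12 days none of the 41 members was called against control (limma; 7 with an unadjusted p below 0.05, 6 higher and 1 lower), where 0.823% of all genes rose and 0.458% fell; edgeR called none and DESeq2 called 1 higher. The median log2 change was 0.34. Ifi44 (1.34 ± 0.49, SE; adjusted p = 0.168), Iigp1 (0.96 ± 0.60; adjusted p = 0.402) and Gbp2 (0.87 ± 0.63; adjusted p = 0.477) were highest, and Ifi27l2a (-0.93 ± 0.38; adjusted p = 0.212), Cmpk2 (-0.42) and Ifit3 (-0.32) lowest. At 12 days the macrophage markers summed to 80047 to 98672 steps in KO skin and 39815 to 62220 in control skin, and the neutrophil markers to 1625 to 2304 and 326 to 490 steps, and their part was not tested. Against 10 days, 13 members were higher at 12 days and none lower, where 19.2% of all genes were higher and 18.3% lower. Ifi44 (log2 change 2.09, adjusted p = 0.00717), Oasl1 (0.98, adjusted p = 0.0471), Trim30a (0.97, adjusted p = 0.0086) and Oas2 (0.96, adjusted p = 0.012) led, followed by Psmb8 (0.93), Parp14 (0.81), Ifih1 (0.78) and Eif2ak2 (0.78). Without replicate 2 at 10 days the count was 29, and without replicate 1 or 3 it was 7. Against 4 days none passed (limma; 17 with an unadjusted p below 0.05, all lower; 0.0360% of all genes lower and 0.108% higher), edgeR called none and DESeq2 called 8 lower; Ifi27l2a was lowest (-2.18, adjusted p = 0.056). The KO comparisons share libraries, so they are not independent of each other.

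**Figure D5:**
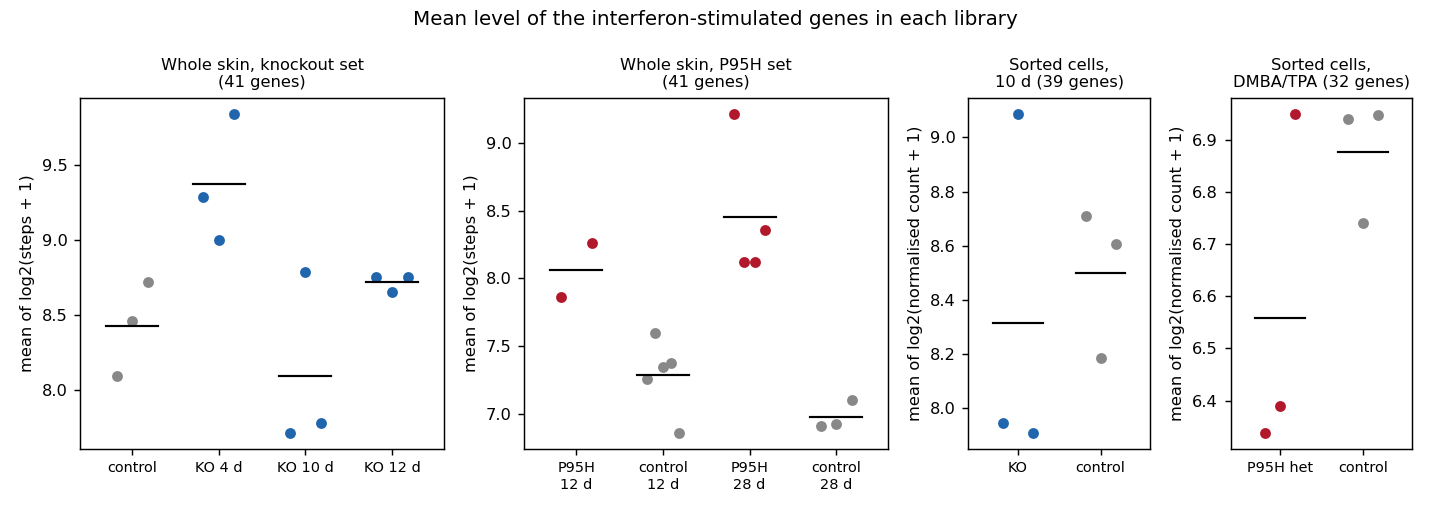
Mean of log2(value + 1) over the measured interferon-stimulated genes in each library of the 4 tables; points are libraries and bars are group means, in steps for whole skin and normalised counts for sorted cells. At 28 days the P95H libraries lie at 8.12 to 9.21 and the controls at 6.91 to 7.10, and single libraries stand out in KO skin at 10 days and in sorted KO cells.

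In sorted reporter-positive cells the leukocyte gene Ptprc was low, with 0 to 63.2 normalised counts in sorted KO cells and 23.1 to 35.8 in sorted control cells. Of the members, 39 were measured (Ifit3 and Ifit3b fell below the filter), and none passed against control at 10 days (limma; 2 with an unadjusted p below 0.05, both lower; 0.0282% of all genes higher and 0.0113% lower; edgeR and DESeq2 called none). The median log2 change was -0.20, with 13 positive and 26 negative changes. Without overlap, 1 member lay above and 4 below the controls, against 12.8% and 15.8% of all genes. Trim30a had 6.39, 27.4 and 11.7 normalised counts in KO cells, against 65.1, 33.8 and 64.1 in control cells (log2 change -1.93 ± 0.63, SE; adjusted p = 0.214). Ifi44 (-1.14) and Iigp1 (-0.91) were next, and Oas2 (0.80), Oas1a (0.73) and Ifi35 (0.65) were highest.

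Replicate 2 of the sorted KO cells stood apart, with a member mean of 9.09 against 7.95 and 7.91. Its normalised counts summed to 157 M, against 54.9 to 66.6 M in the other sorted libraries of that time. It also had the lowest depth of them, at 45.9 M reads. The part of this scale in its member values was not tested. Isg15 had 296, 1055 and 309 normalised counts in sorted KO cells, against 408, 259 and 344 in control cells, and Bst2 had 287, 1068 and 295, against 430, 350 and 322. Without that library no member passed either, while 183 of all 17744 genes were higher and 224 lower, and the members' median log2 change was -0.47. Across the 39 genes, the change at 10 days in skin and in sorted cells, which come from different libraries, had Pearson r = 0.22 and Spearman rho = 0.24, as a description. Ifnk, a keratinocyte type I interferon, was measured in these cells, with 5.68, 0 and 19.0 normalised counts in KO cells and 72.6, 56.7 and 83.0 in control cells. The groups did not overlap, but the change (log2 -3.79 ± 1.03, SE) did not pass (adjusted p = 0.177). Ifnb1 was at 0 in all 6 libraries.

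After DMBA/TPA, 32 members were measured and none passed in heterozygous P95H cells against control cells (limma; 8 with an unadjusted p below 0.05, all lower; 0% of all genes called in either direction; edgeR called none and DESeq2 called 3 lower). The median log2 change was -0.29, with 26 of 32 negative. The class with the lowest median was that of the GTPases (log2 change -0.98, members from -1.54 to -0.52). Iigp1 had 9.86, 23.3 and 48.8 normalised counts in heterozygous P95H cells, against 63.8, 64.96 and 75.0 in control cells (log2 change -1.54 ± 0.46, SE, limma adjusted p = 0.189). Igtp had 76.4, 62.3 and 139.7, against 207.5, 136.4 and 191.3 (-0.9998 ± 0.28; adjusted p = 0.179), and Irgm1 143.0, 123.7 and 217.6, against 389.7, 247.8 and 310.2 (-0.98 ± 0.23; adjusted p = 0.134). Iigp1 and Irgm1 did not overlap between the groups, whereas Igtp did. Heterozygous replicate 3 stood apart, with a member mean of 6.95 against 6.34 and 6.39 in the other heterozygous libraries and 6.74 to 6.95 in controls. Most markers of Langerhans cells, the dendritic cells of the epidermis, were higher in this library than in the other heterozygous libraries. Epcam was not, at 3527, 2854 and 3326 normalised counts in heterozygous P95H cells, against 4600, 3363 and 4105 in control cells. Cd207 had 24.7, 20.8 and 374 normalised counts in heterozygous P95H cells, against 102, 90.0 and 124 in control cells. Cd74 had 314, 265 and 1583, against 767, 953 and 1530, and Ptprc 24.7, 20.8 and 88.3, against 31.9, 66.8 and 39.6. The Cd74 value of heterozygous replicate 3 was thus close to the highest control value. The 5 Langerhans cell markers summed to 4428, 3855 and 7182 in heterozygous P95H cells and 5470 to 6886 in control cells, and their part in the members' change was not tested. Without that library the median log2 change was -0.43, and no member passed. In all, 8 members lay below the controls without overlap, where 10.5% of all genes did. Mx1 (0.69), Ifi27l2a (0.22) and Eif2ak2 (0.12) were highest. Isg15 had 16.0, 14.7 and 27.4, against 25.3, 25.1 and 55.2. Across the 32 genes, this change and that in P95H skin at 28 days had Pearson r = 0.02 and Spearman rho = -0.02, as a description. Treatment, its length and the material (sorted cells or whole skin) differ between those 2 comparisons.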

How the data were processed

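RNA-seq libraries from 38 mouse samples in 4 tables were analysed. Per the submitters' processing notes, STAR, featureCounts and DESeq2 were used. No version, role or build is stated for them. Per the labels' protocols, total RNA was extracted with Trizol and the libraries are stranded total RNA. The deposited normalised counts (a signal per gene, scaled per library by the authors) were whole multiples of 1 smallest step per library, within a tolerance of 1e-04. In sorted cells these are normalised counts from recovered whole reads. In whole skin undetected genes sat at 1 step, and libraries differed by a further division: median log2 shifts ran from -0.26 to 0.52 in the KO set and -0.98 to 1.22 in the P95H set in deposited values, against -0.023 to 0.020 and -0.011 to 0.0086 in steps, so steps were analysed. Depth in whole skin is an estimate, and the steps of P95H replicate 1 at 28 days are rescaled reads.

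The tests used limma 3.58.1 in R 4.3.3 (limma-trend on log2 of value + 1, so folds of low genes are understated), 1 fit per table, genes with a mean of 10 or more, Benjamini-Hochberg adjustment over all genes tested, threshold 0.05. Members were chosen by name, and the members, lists and role groups were chosen with earlier results of these data known. In each comparison the text names every called member where 12 or fewer were called, otherwise the 8 with the largest change and up to 2 per role class, the lowest and highest (3 each where none was called), and up to 4 called genes per pathway list with the smallest p. All 41 members may be named. Alternatives were the deposited values, equal totals, another pseudocount, no filter, edgeR 4.0.16, DESeq2 1.42.0, only the compared groups, a replicate block, and each replicate left out. Scripts were tested on simulated data. Replicate numbers were not taken to pair the libraries. Replicates are labelled biological, and no 2 libraries matched within sampling noise. Gene IDs were matched to GENCODE M21, with all 41 members found. Near-identical copies (Oas1, Ifit3, Gbp and immunity-related GTPase genes) may share reads. A result on 1 further pathway gene is not reported here.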

Additional observations from a re-analysis of the deposited data

Results flagged for a closer look

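Across 84 tests of groups of 4 or 5 libraries, 12 member values lay far from the rest of their group. Genes of the same library vary together, so the tests are not independent and the count is not set against a chance rate. In P95H skin at 28 days, replicate 1 was far above the other 3 libraries for Irf7 (1168 steps), Stat2 (2377), Zbp1 (463), Ifit3 (148), Mx1 (543), Mx2 (356), Cmpk2 (236) and Gbp3 (297). This library is also the shallowest of the set, and the part of depth was not tested. In control skin at 12 days, replicate 5 was far below the other 4 for Ddx58 (384 steps), Parp9 (390), Gbp3 (106) and Tap1 (1446).

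Change against the shared controls differed between times of deletion in KO skin, by the direct test of 1 time against another. Between 10 and 4 days 30 members were lower at 10 days, led by Ifi44 (log2 change -2.86), Oasl1 (-2.40) and Ifi27l2a (-2.37). Between 12 and 10 days 13 members were higher at 12 days, led by Ifi44 (2.09), Oasl1 (0.98) and Trim30a (0.97).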

How the results depend on the processing

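Set against their alternatives, 522 counts and medians stayed close to the value reported (a count within 1.5 times, a median within 1 SD of the libraries' member means) and 42 moved. Many of these counts were 0 in the reported fit, and a 0 that stayed 0 is among the 522, so that number overstates how stable the calls were. No called member changed sign under an alternative. The rise in P95H skin at 28 days held 31 to 37 members when 1 replicate was left out (median log2 change 0.997 to 1.32), 28 of the 36 passed in every such fit and 26 under every alternative, and the deposited values gave a median of 1.84, with a median of 0.59 over all genes. Calls that passed in every leave-one-out fit were 1 of 10 in KO skin at 4 days, 0 of 1 at 10 days, 24 of 30 between 10 and 4 days, 7 of 13 between 12 and 10 days and 0 of 7 in P95H skin at 12 days.

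With the deposited values, members called higher were 3 in KO skin at 4 days, 1 between 12 and 10 days, 1 in P95H skin at 12 days and 3 in the difference between times (median 1.33, all genes 0.71), and members called lower were 0 in KO skin at 10 days, 15 between 10 and 4 days and 10 between control skin at 28 and 12 days (median -1.08, all genes -0.82). DESeq2 called 24 higher in KO skin at 4 days, 4 lower at 10 days, 1 higher at 12 days, 8 lower between 12 and 4 days, 12 higher in P95H skin at 12 days, 1 higher in the difference between times and 3 lower after DMBA/TPA. Equal totals gave 19 lower in KO skin at 10 days, with 6806 of all 19450 genes lower, and 26 higher between 12 and 10 days, with 7696 of all genes higher (all-gene medians -0.34 and 0.35). EdgeR gave 2 lower at 10 days, only the compared groups 6 higher at 4 days, a pseudocount of 5 gave 1 lower between 12 and 4 days, and no filter 1 lower after DMBA/TPA. The cause of these shifts was not tested.

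Leaving out 1 replicate gave 1 to 15 higher members in KO skin at 4 days, 0 to 6 lower at 10 days, 24 to 40 lower between 10 and 4 days, 7 to 29 higher between 12 and 10 days, and 0 to 9 higher in P95H skin at 12 days.

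Same-numbered libraries did not deviate together throughout, although single pairs did: correlations of their deviations from the group means were -0.46 to 0.84 in KO skin (5 of 18 pairs over 0.1), -0.19 to 0.37 in P95H skin (4 of 16), 0.058 to 0.19 in sorted KO-set cells (2 of 3) and 0.056 to 0.15 after DMBA/TPA (2 of 3). Since not every pair was over 0.1, the numbers were not taken to pair the libraries. With the replicate number as a block, 36 members were higher in P95H skin at 28 days, 1 was higher at 12 days, 3 were lower in KO skin at 10 days, 1 was lower between 12 and 4 days, and 1 was lower after DMBA/TPA.

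Depth limits the lowest members and the interferon genes, most of which sat at or near 1 step in whole skin, and the 2 P95H mice at 12 days limit the calls of that time.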
